A study of Mus musculus with 30 samples.

Results

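The nuclear genome encodes most of the protein subunits of the mitochondrial machinery for oxidative phosphorylation. These genes are described here in mouse bone marrow derived macrophages (BMDM) given lipopolysaccharide (LPS) and compounds that bind an oxysterol-binding protein. Members were taken by symbol from the table of gene counts: the Nduf genes that carry an A, B, C, S or V letter and a number (complex I), Sdha to Sdhd (complex II), the Uqcr genes (complex III), Cox4 to Cox8 genes (complex IV) and the Atp5 genes (complex V). Symbols of pseudogenes (-ps) were left out, and a member needed at least 100 counts over the 30 libraries. The table held 30538 genes, of which 84 matched by symbol, 80 became members and 79 had enough counts to be tested. Cox4i2, with 120 counts, lay just inside the limit and was not tested, and the next member was Cox6b2 with 656. Ndufa4l2, with 31 counts, lay just outside, and Cox7b2, Cox8b and Cox8c had 0 counts.

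BMDM of wild-type C57BL/6 mice and of mice without Ch25h (Ch25h-/-), the enzyme that makes 25-hydroxycholesterol (25HC), were compared, with 3 mice per genotype and 1 library per mouse and condition. Wild-type cells were untreated or were given a compound for 18 h. The compounds were 25HC at 5 µM, the antifungal drug itraconazole at 1 µM and the plant saponin OSW-1 at 0.3 µM. Each set was then unstimulated, with a stimulation time of 0 h in the labels, or stimulated with 10 ng/mL LPS for 18 h. Whether unstimulated cells were kept for the same 18 h is not given in the sources used here. A change with LPS therefore cannot be told apart from 18 h more in culture or since the compound. Ch25h-/- cells were untreated, unstimulated or with LPS. This makes 10 groups of 3 libraries. All 3 compounds bind OSBP, an oxysterol-binding protein that moves sterol between membranes. A vehicle for the untreated cells, and whether a compound stayed on during LPS, are not given in the sources used here. The compounds were used at different doses, so their values stand side by side and are not compared with each other.

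Oxidative phosphorylation passes electrons from NADH (complex I) and succinate (complex II) through complex III to complex IV, which reduces oxygen. Complexes I, III and IV pump protons, and the proton gradient drives ATP synthesis by complex V. The membrane core of complex I, the cytochrome b of complex III, the catalytic core of complex IV and a small part of the complex V membrane sector are made from mitochondrial DNA. All other subunits come from nuclear genes, among them those that oxidize NADH and succinate and those of the catalytic head of the ATP synthase. In macrophages, LPS is known to shift energy metabolism toward glycolysis and to use succinate oxidation at complex II for signalling.

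Total counts per library ran from 23656860 to 43922154. In 20 libraries every count was even. The 10 with odd counts were all 6 of Ch25h-/- cells, all 3 with OSW-1 and LPS and 1 with 25HC alone, so that in the genotype comparisons and those of OSW-1 with LPS this difference in counting cannot be told apart from the groups. With even counts halved, OSW-1 with LPS had 54 members lower and 6 higher and the genotype comparisons 0. Levels are in CPM, counts scaled to library size with TMM factors, and fold changes are log2 values with a standard error (±) from 1 edgeR quasi-likelihood fit of all 30 libraries. A gene is called, and is said to rise or fall, at a Benjamini-Hochberg adjusted p under 0.05 over all 13173 genes tested. Ch25h was at 1.96 ± 0.466 CPM (SD, n = 3) in untreated unstimulated wild-type cells and at 0.118 CPM in Ch25h-/- cells. With LPS these were 1.51 ± 0.726 and 0.117 CPM. Macrophage markers, a list of 8 genes, summed to 5320.0 CPM or more in every library. Markers of other cells summed to at most 37.0 CPM for T cells, 13.5 for fibroblasts, 3.84 for neutrophils, 1.96 for dendritic cells and under 1 CPM for B cells and erythroid cells. The T cell sum of 4 genes was nearly all Cd4. Of the others, Cd3e reached at most 0.0489 CPM and Cd3d 0.0768 in any library, and Cd8a was at 0 in each. The sums moved too. In wild-type cells that of the T cell list, and so Cd4, was 20.04 CPM without LPS, 7.77 with LPS and 0.048 with OSW-1 and LPS. The fibroblast sum went from 0.913 to 5.93 CPM with LPS. Their part in the results was not tested. In bulk RNA, fewer cells of a type and less RNA per cell cannot be told apart.

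**Figure D1:**
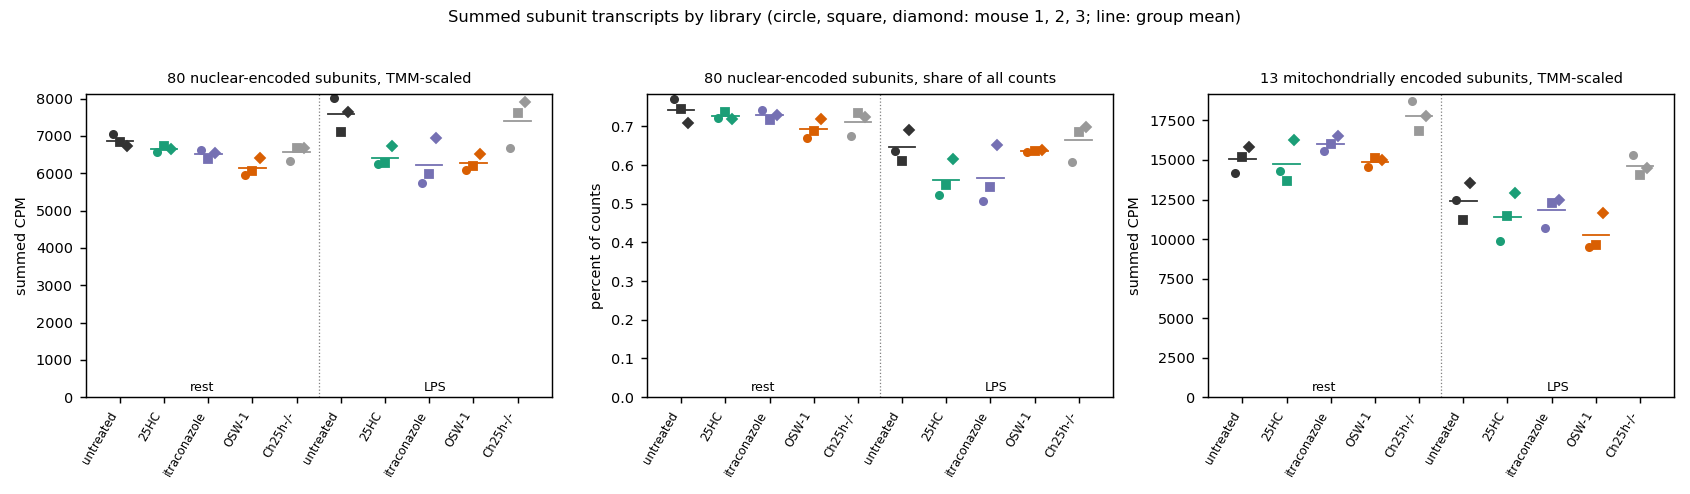
Summed levels of the 80 nuclear-encoded subunits (left, CPM after TMM scaling; middle, percent of all counts) and of the 13 mitochondrially encoded subunits (right, CPM). Each point is 1 library (circle, square and diamond for mice 1, 2 and 3), lines are group means, and groups left of the dotted line had no LPS. With LPS, the 3 untreated wild-type libraries lie at 7110 to 8009 CPM and those of all 3 compounds at 5730 to 6940 CPM.

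Together the 80 subunit genes made up 6871 ± 161 CPM (SD, n = 3) in untreated unstimulated wild-type cells. Compared per kilobase of transcript, Cox4i1, the ubiquitous form of a regulatory subunit of complex IV, was the highest of the 80 genes at 405.9 ± 21.2 CPM per kilobase. Atp5b, the catalytic subunit of the ATP synthase head, was second at 339.8 ± 31.5, and Cox6a1 followed at 285.8. The levels of Cox4i1 and Atp5b differed by more than their SDs. By median level per kilobase, the order of the groups was the head of complex V (230 CPM per kilobase), common subunits of complex IV (149), complex III (105), complex II (95), the stalk and membrane part of complex V (89.9) and complex I, from 64.1 in its membrane arm to 38.2 in its NADH-oxidizing module. The muscle-type or tissue-restricted isoforms were among the lowest: Cox7a1 at 9.18, Cox6b2 at 3.49, Cox6a2 at 2.83 and Cox4i2, a hypoxia and lung isoform, at 0.36 CPM per kilobase. Their ubiquitous counterparts Cox6a1, Cox6b1 and Cox4i1 were all among the highest of the 80. Atp5s at 3.52 and Ndufb4 at 3.47, which are not such isoforms, also lay below Cox7a1. The lengths come from 1 transcript per gene, which limits these comparisons. Sequence shared with other genes limits them too. Of the 50-base stretches of Atp5g2 100% also occur in other genes, of Atp5l 84.8% and of Ndufb4 37.0%, and its effect on the levels was not tested.

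LPS alone moved the subunit genes in both directions and by small amounts. In untreated wild-type cells 26 of 79 rose and 6 fell (32.9% and 7.59%), against 30.8% higher and 30.1% lower among all genes tested, and the median change was 0.12 against -0.01 for all genes. In Ch25h-/- cells 32 rose and 6 fell (40.5% and 7.59%), against 28% and 29.2%, with a median of 0.18. In wild-type cells the share that rose was near the background, and in both genotypes the share that fell was below it. This balance rests on the scaling. With library totals in place of TMM, the median of all genes moved by -0.34 in wild-type and -0.27 in Ch25h-/- cells, and the split became 5 higher and 33 lower in wild-type and 10 higher and 18 lower in Ch25h-/- cells. The summed share of counts went from 0.742% without LPS to 0.646% with it in wild-type cells. On either scaling the subunit genes lay above the median of all genes, at -0.23 against -0.35 in wild-type cells with library totals.

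Cox5a, a matrix-side subunit of complex IV, had the largest rise with LPS after the low-level Cox6a2. It was at 88.4, 92.5 and 90.2 CPM in unstimulated wild-type mice 1 to 3 and at 164, 147 and 169 CPM with LPS. All LPS libraries lay above all unstimulated ones, and the change was 0.82 ± 0.08 (adjusted p = 2.2e-09). In Ch25h-/- cells it went from 77.5, 94.2 and 83.3 to 161, 169 and 170 CPM, a change of 0.97 ± 0.08 (adjusted p = 1.4e-10). A gene on the opposite strand overlaps an exon of Cox5a, and whether reads were counted by strand is not given in the sources used here.

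The 4 genes of complex II, which oxidizes succinate to fumarate, did not move together with LPS. Sdhb, its iron-sulfur subunit, was at 114, 111 and 122 CPM in unstimulated cells and at 203, 179 and 186 with LPS (0.71 ± 0.08, adjusted p = 2.8e-08). The membrane anchor Sdhd also rose (0.43 ± 0.09, adjusted p = 0.00031). The flavoprotein Sdha, which holds the succinate site, fell from 263, 253 and 255 to 222, 216 and 233 CPM (-0.20 ± 0.05, adjusted p = 0.0022), and the other anchor, Sdhc, was at 146, 146 and 138 and then 147, 143 and 140 CPM and was not called. The groups of Sdha, Sdhb and Sdhd did not overlap, and those of Sdhc did. Ch25h-/- cells had like values, 0.63 ± 0.08 for Sdhb, 0.42 ± 0.09 for Sdhd and -0.21 ± 0.05 for Sdha, each of them called. With library totals the rise of Sdhb was still called in wild-type cells (0.37), that of Sdhd was not (0.09, adjusted p = 0.41), and Sdhc fell (-0.34, adjusted p = 0.0026).

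In complex I, 10 of 20 membrane arm and interface genes rose with LPS in wild-type cells and 1 fell. Ndufc2, a membrane arm subunit, went from 55.7, 56.1 and 61.6 to 95.3, 86.3 and 90.8 CPM (0.65 ± 0.10, adjusted p = 6.7e-06). Ndufs4, an accessory subunit of the NADH-oxidizing module, rose by 0.64 ± 0.09 (adjusted p = 1.4e-06). Ndufs5 rose by 0.56 ± 0.12, and by 0.78 ± 0.13 in Ch25h-/- cells. Ndufb11 fell in both genotypes, by 0.46 and 0.53 on the log2 scale. Ndufs8, an iron-sulfur subunit, fell in wild-type cells (-0.29 ± 0.09), a call that was lost without unstimulated untreated mouse 1 (-0.16, adjusted p = 0.11). The core subunits Ndufs1 (-0.04 ± 0.07) and Ndufv1 (0.02 ± 0.06) were not called, and with library totals both fell (-0.38 and -0.32).

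In complex III, 3 of 8 genes rose with LPS in wild-type cells and none of the 8 fell. Uqcrc2, a core protein, rose by 0.43 ± 0.09 (adjusted p = 0.00014) and Uqcrq by 0.46 ± 0.12 (adjusted p = 0.002). With library totals the change of Uqcrc2 was 0.08 and was not called. The Rieske iron-sulfur protein Uqcrfs1 was not called in wild-type cells (-0.16 ± 0.08, adjusted p = 0.082) and fell in Ch25h-/- cells (-0.21 ± 0.08, adjusted p = 0.024). In complex V, Atp5o, a stalk subunit, rose by 0.27 ± 0.08 (adjusted p = 0.0046). Atp5sl, whose product takes part in complex I assembly despite its symbol, fell by 0.60 on the log2 scale in wild-type cells and by 0.71 in Ch25h-/- cells. Atp5b was not called in wild-type cells (0.14 ± 0.08).

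**Figure D2:**
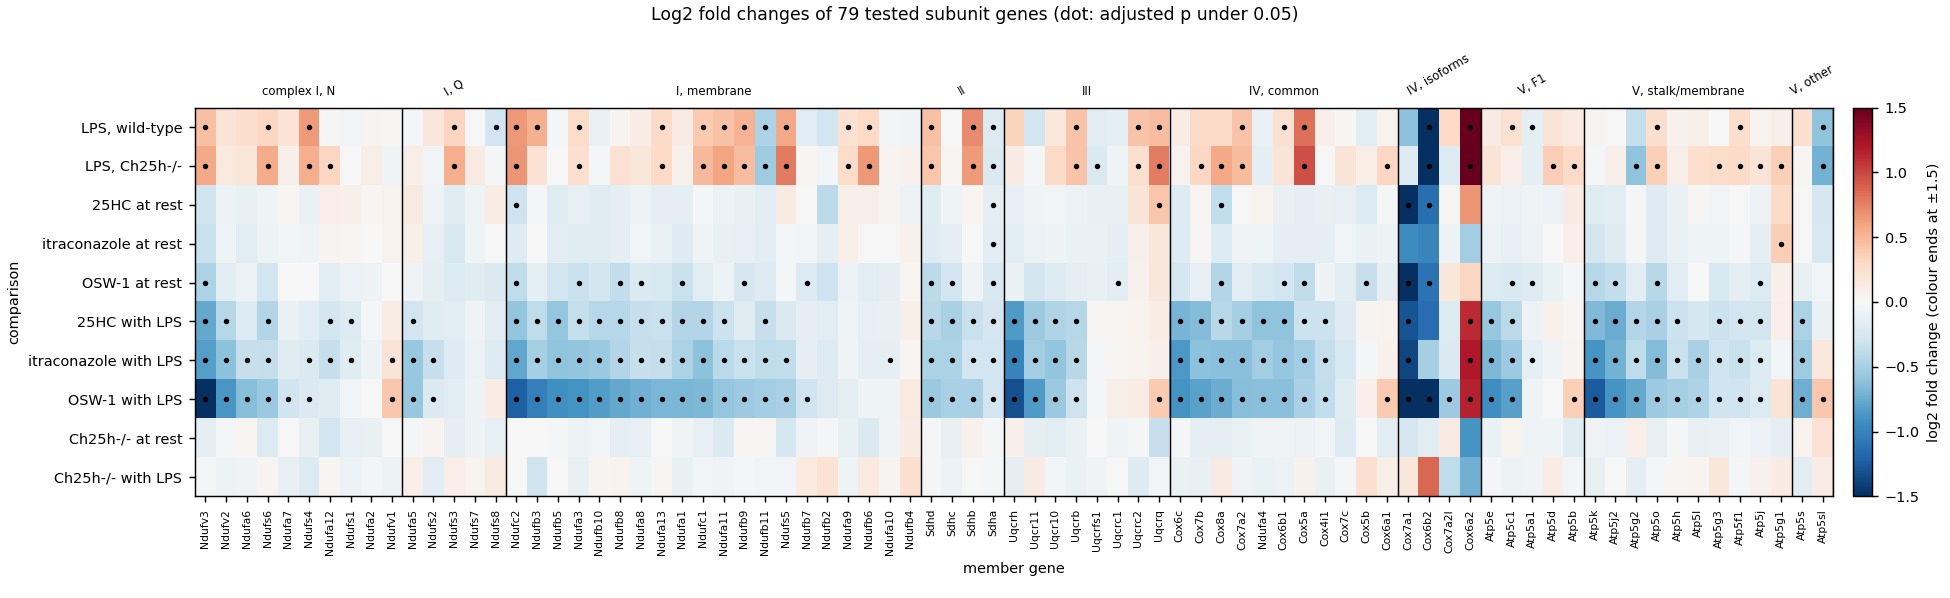
Log2 fold changes of the 79 tested subunit genes (columns, grouped by complex) in 10 comparisons (rows), with colour from blue (lower) to red (higher), ending at ±1.5, and a dot where the adjusted p was under 0.05. The rows of the 3 compounds with LPS are mostly blue, with 46, 54 and 54 genes called lower, and the rows of the genotype comparisons hold 0 dots.

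Without LPS, 25HC and itraconazole moved few subunit genes. With OSW-1 the calls were all lower, in a number that changed with single libraries. With 25HC 1 rose and 5 fell of 79, against 15.9% higher and 12.8% lower among all genes, and with itraconazole 1 rose and 1 fell, against 14.4% and 12.4%. With OSW-1 0 rose and 24 fell (30.4%), against 20.1% and 17.2%, and the median was -0.17 against 0.00 for all genes. The 24 were spread over the complexes: 7 of 20 in the membrane arm of complex I, 3 of 4 in complex II, 4 of 11 common subunits of complex IV and 4 of 10 in the stalk and membrane part of complex V. That count fell to 7 and 11 without OSW-1 unstimulated mouse 1 or 2, to 12 without untreated unstimulated mouse 1, and to 10 with library totals, and without mouse 3 in every wild-type group it was 37. Most single calls without LPS were lost when 1 library was left out.

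Sdha was the one member called lower with every compound in unstimulated cells. Its changes were -0.15 ± 0.05 with 25HC (adjusted p = 0.036), -0.16 ± 0.05 with itraconazole (adjusted p = 0.027) and -0.23 ± 0.05 with OSW-1 (adjusted p = 0.0014). These comparisons share the 3 untreated libraries, and leaving out untreated mouse 1 gave -0.13 with 25HC (adjusted p = 0.12) and -0.14 with itraconazole (adjusted p = 0.1). Uqcrq, a small subunit of complex III, was at 82.1, 73.1 and 65.8 CPM in untreated cells and at 106, 104 and 83.8 with 25HC (0.41 ± 0.12, adjusted p = 0.012), and without untreated mouse 3 the change was 0.34 (adjusted p = 0.084). Atp5g1, which encodes subunit c of the proton-carrying ring, rose with itraconazole (0.36 ± 0.13, adjusted p = 0.037). It was no longer called without untreated mouse 1 (0.31, adjusted p = 0.13), and 66.0% of its 50-base stretches also occur in other genes. With OSW-1, Cox5a was at 67.1, 69.8 and 70.8 CPM, below the 3 untreated libraries (-0.38 ± 0.08, adjusted p = 0.00044), and Atp5o fell by 0.42 on the log2 scale (adjusted p = 0.00013).

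With LPS present, all 3 compounds lowered most of the subunit genes. With 25HC 46 of 79 fell and 1 rose (58.2% and 1.27%), against 21% lower and 20.8% higher among all genes. With itraconazole 54 fell and 2 rose (68.4% and 2.53%), against 27.9% and 26.5%. With OSW-1 54 fell and 6 rose (68.4% and 7.59%), against 37.1% and 34.3%. The median changes were -0.32, -0.36 and -0.49, against -0.01, -0.03 and -0.06 for all genes. Transcripts under 800 bases, the class of 41 of the 79 members, had medians of -0.25, -0.30 and -0.38 over all coding genes tested. The 3 comparisons share the untreated LPS libraries. The counts did not rest on mouse 3, whose itraconazole library with LPS had the highest summed subunit level of that group (6940 CPM): without mouse 3 in every wild-type group they were 48, 57 and 54 lower. With library totals, 39, 41 and 42 fell and 1, 2 and 17 rose (with OSW-1 the median of all genes then moved by 0.25, to 0.19, and that of the members was -0.24), and in fits of the compared groups alone 30 fell and 1 rose with 25HC and 28 fell and 1 rose with itraconazole.

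Of the 8 macrophage markers, 5 fell with 25HC, 5 with itraconazole and 8 with OSW-1 in cells with LPS, and none rose. Csf1r, the receptor for the growth factor M-CSF, fell only with OSW-1. It was at 2064 CPM in untreated cells with LPS, 2074 with 25HC, 2238 with itraconazole and 1473 with OSW-1, and the changes with 25HC and itraconazole were not called. Emr1, the gene of the F4/80 antigen, was at 6180 CPM and then 3506, 3608 and 2256. The markers summed to 28906 ± 5887 CPM (SD, n = 3) in untreated cells with LPS, 16477 ± 3250 with 25HC, 19642 ± 7177 with itraconazole, where mouse 3 was highest at 27882, and 6147 ± 1121 with OSW-1. Without Lyz2, the largest single part, the sums were 13598 ± 815, 9216 ± 423, 9152 ± 884 and 4297 ± 340. Their part in the result was not tested. The summed subunit level was 7587 ± 452 CPM in untreated cells with LPS, 6420 ± 272 with 25HC, 6213 ± 641 with itraconazole and 6269 ± 224 with OSW-1. In no compound group with LPS did a library reach the lowest untreated LPS library (7110 CPM), as the plot of summed levels shows. As a share of all counts, OSW-1 with LPS was at 0.637% and untreated LPS at 0.646%, and only on the TMM scale did its libraries lie apart. The means of 25HC (0.563%) and itraconazole (0.568%) were lower on both scales, but as a share of counts their libraries overlapped the untreated ones (0.61% to 0.692%), since mouse 3 was at 0.616% with 25HC and at 0.653% with itraconazole.

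In complex I under LPS, the fall was widest in the membrane arm, where 12, 15 and 15 of 20 genes fell with 25HC, itraconazole and OSW-1, with medians of -0.34, -0.38 and -0.63. In the NADH-oxidizing module 5, 7 and 6 of 10 fell, and in the quinone-reducing module 1, 2 and 2 of 5. Ndufv3, an accessory subunit of the NADH-oxidizing module, was at 88.1, 70.2 and 87.7 CPM in untreated LPS mice 1 to 3, at 53.2, 40.8 and 51.2 with 25HC, at 39.6, 37.8 and 61 with itraconazole and at 14.4, 19.1 and 25.9 with OSW-1. All compound libraries lay below all untreated ones. Its changes were -0.76 ± 0.16 (adjusted p = 0.00044), -0.83 ± 0.16 (adjusted p = 9.9e-05) and -2.05 ± 0.16 (adjusted p = 5.1e-11). Ndufc2 was at 95.3, 86.3 and 90.8 CPM untreated, then 58.5, 57.2 and 65 with 25HC, 45.5, 48.2 and 64.7 with itraconazole and 35.5, 37.2 and 44.2 with OSW-1. Its groups did not overlap either, and the changes were -0.59 ± 0.10, -0.78 ± 0.10 and -1.22 ± 0.11.

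Not all genes of the NADH-oxidizing module followed. Ndufv1, the flavoprotein that takes electrons from NADH, was at 64.6, 63.4 and 65.6 CPM in untreated LPS cells, at 66.3, 73.4 and 69 with 25HC, at 71.3, 73.9 and 75.6 with itraconazole and at 82.9, 86.6 and 86.4 with OSW-1. It rose with itraconazole (0.19 ± 0.06, adjusted p = 0.01) and OSW-1 (0.40 ± 0.06, adjusted p = 2e-06) and was not called with 25HC (0.11 ± 0.06, adjusted p = 0.16). Its partner in the same module, Ndufv2, fell with each compound (-0.43 ± 0.09, -0.62 ± 0.09 and -0.88 ± 0.10). Ndufs1, the largest iron-sulfur subunit, had changes of -0.20, -0.18 and -0.04, of which the first and second were called with overlapping groups and were lost without untreated LPS mouse 1 (-0.14 and -0.13, adjusted p = 0.12 for each). With library totals Ndufs1 rose with OSW-1 (0.22, adjusted p = 0.012).

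Every gene of complex II fell with every compound under LPS. Sdhb was at 203, 179 and 186 CPM in untreated LPS cells, at 146, 145 and 158 with 25HC, at 145, 150 and 170 with itraconazole and at 137, 138 and 131 with OSW-1 (-0.34, -0.29 and -0.49, each ± 0.08). These levels lie between the unstimulated and the LPS levels of untreated cells. Sdhc, which LPS alone did not move, was at 94.1, 104 and 108 CPM with 25HC, at 91.2, 100 and 118 with itraconazole and at 94.8, 99.3 and 112 with OSW-1, all below the 140 to 147 of untreated LPS cells (-0.49, -0.47 and -0.49, each ± 0.09). Sdhd changed by -0.42, -0.47 and -0.55 and Sdha by -0.25, -0.29 and -0.28. With library totals the genes of complex II kept a negative sign with each compound, but Sdha with OSW-1 (-0.03, adjusted p = 0.76) and Sdhb with itraconazole (-0.19, adjusted p = 0.062) were not called.

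Complex III split in its parts. Uqcrh, the acidic hinge protein near cytochrome c1, showed the largest fall of the complex. It was at 121, 97.2 and 103 CPM in untreated LPS cells, at 54.4, 53.1 and 70.1 with 25HC, at 40.3, 46.4 and 74 with itraconazole and at 42.6, 39.5 and 46.6 with OSW-1. No library overlapped the untreated group, and the changes were -0.85 ± 0.15 (adjusted p = 9e-05), -1.0 ± 0.15 (adjusted p = 6.4e-06) and -1.32 ± 0.15 (adjusted p = 3.2e-08). Uqcr11, another small subunit, changed by -0.54, -0.52 and -0.85. The core protein Uqcrc2 (0.06, 0.06 and 0.11) and the Rieske protein Uqcrfs1 (0.02, -0.02 and -0.01) were not called, and Uqcrq rose with OSW-1 (0.39 ± 0.12, adjusted p = 0.0057). With library totals and OSW-1, Uqcrc2 (0.37) and Uqcrfs1 (0.25) were called higher.

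**Figure D3:**
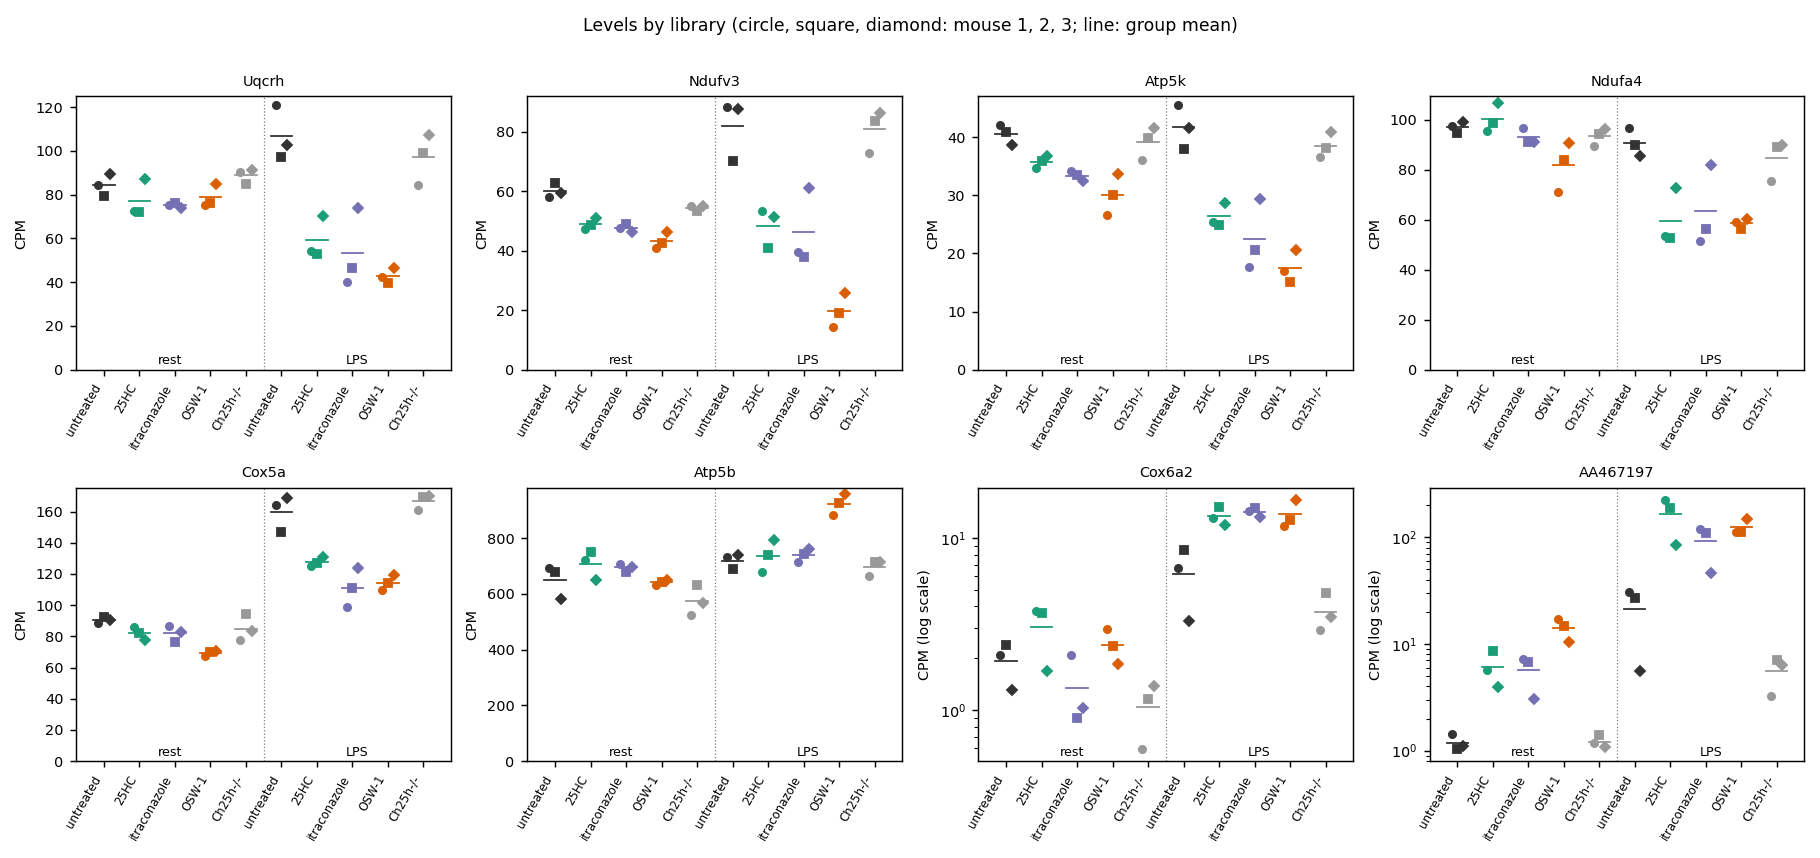
Levels by library (CPM) of 7 subunit genes and of AA467197, a paralog of Ndufa4, with symbols for the mice as in the legend and lines for group means, and log axes for Cox6a2 and AA467197. Uqcrh, Ndufv3, Atp5k and Ndufa4 lie lower in all compound libraries with LPS than in the untreated LPS libraries, while Cox6a2 lies above.

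In complex IV, 8 of 11 common subunits fell with each compound under LPS, with medians of -0.41, -0.52 and -0.63. Cox6c changed by -0.69, -0.86 and -0.90 (each ± 0.12), Cox7b by -0.65, -0.62 and -0.80 (each ± 0.13) and Cox6b1, which bridges the dimer, by -0.60, -0.58 and -0.63 (each ± 0.10). Cox7a2 and Cox8a, the ubiquitous forms of 2 small membrane subunits, also fell with each compound, by 0.50, 0.62 and 0.63 and by 0.41, 0.62 and 0.74 on the log2 scale. Cox4i1 changed by -0.32, -0.36 and -0.37 (with OSW-1 -0.11 and not called with library totals) and Cox5a by -0.33, -0.52 and -0.48. For Cox5a the levels of 125, 127 and 131 CPM with 25HC stayed above the unstimulated 88.4 to 92.5 CPM. Cox6a1 went the other way with OSW-1, at 226, 229 and 211 CPM against 181, 145 and 182 (0.39 ± 0.09, adjusted p = 0.00023), and was not called with 25HC (0.05) or itraconazole (0.06). Cox8a with 25HC was no longer called without untreated LPS mouse 3 (-0.28, adjusted p = 0.11).

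Ndufa4, once counted with complex I and now placed in complex IV, was not called with LPS alone (-0.10 ± 0.13). Under LPS it was at 96.9, 90 and 85.5 CPM in untreated cells, at 53.4, 52.8 and 72.7 with 25HC, at 51.7, 56.5 and 82 with itraconazole and at 59.1, 56.3 and 60.4 with OSW-1, with no overlap (-0.61 ± 0.13, adjusted p = 0.00059; -0.52 ± 0.13, adjusted p = 0.0015; -0.63 ± 0.13, adjusted p = 0.00011). Its paralog AA467197, which can take its place in complex IV, is not a member and rose under the same conditions. AA467197 was at 1.42, 1.04 and 1.11 CPM in unstimulated cells and at 30.9, 26.7 and 5.59 with LPS (4.13 ± 0.56, adjusted p = 6.4e-07). With LPS and a compound it was at 223, 187 and 84.2 (25HC), 119, 109 and 45.8 (itraconazole) and 113, 111 and 147 CPM (OSW-1). All of these lay above the untreated LPS libraries, among which mouse 3 was lowest, and the changes were 2.97 ± 0.46, 2.12 ± 0.44 and 2.56 ± 0.45. Without LPS the compounds raised AA467197 too, by 2.35 ± 0.58, 2.24 ± 0.58 and 3.55 ± 0.56.

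Of the restricted isoforms of complex IV, Cox6a2, the heart and skeletal muscle form, was the member that rose most. It went from 2.08, 2.4 and 1.3 CPM to 6.7, 8.52 and 3.28 with LPS (1.67 ± 0.34, adjusted p = 0.00016). In cells given a compound before LPS it was at 13.1, 15.2 and 11.8 (25HC), 14.3, 15 and 13.2 (itraconazole) and 11.8, 12.7 and 16.6 CPM (OSW-1). All compound libraries lay above the untreated LPS ones, and the changes were 1.12 ± 0.31, 1.20 ± 0.31 and 1.15 ± 0.32. Cox6a2 (chr7:128205435-128206387, minus strand, GRCm38) lies within Itgad on the opposite strand, and exons of both overlap. Itgad summed to 168 counts over the 3 untreated unstimulated libraries, 62 with LPS and 20, 8 and 7 with LPS and 25HC, itraconazole or OSW-1, so it went opposite to Cox6a2. Cox7a1, the muscle form of a small subunit, was at 2.64, 1.74 and 2.67 CPM with LPS and at 0.0803, 0.112 and 0.103 with OSW-1 before LPS, which is 8 counts over the 3 libraries. Its fitted change of -4.52 ± 0.66 rests on those few counts. Cox6b2, a testis form, fell with LPS from 2.22, 1.04 and 1.61 to 0.123, 0.24 and 0.304 CPM (-2.85 ± 0.47, adjusted p = 9.9e-06).

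In complex V under LPS, most genes of the stalk and membrane part fell, and the head was mixed. Of 10 stalk and membrane genes 8, 9 and 9 fell with 25HC, itraconazole and OSW-1, with medians of -0.32, -0.36 and -0.48. Atp5k, the e subunit at the dimer interface, was at 45.5, 38 and 41.5 CPM in untreated LPS cells, at 25.4, 25 and 28.8 with 25HC, at 17.6, 20.5 and 29.3 with itraconazole and at 17.1, 15.1 and 20.5 with OSW-1. Its groups did not overlap, and the changes were -0.66 ± 0.13, -0.89 ± 0.13 and -1.25 ± 0.13. Atp5j2, the f subunit, changed by -0.74, -0.70 and -0.88 and Atp5o, the peripheral stalk subunit, by -0.49, -0.65 and -0.55. Of 5 head genes 2, 3 and 2 fell, with medians of -0.07, -0.15 and -0.06. Atp5b, the catalytic β subunit, was at 731, 689 and 738 CPM in untreated LPS cells, at 677, 741 and 792 with 25HC, at 715, 743 and 761 with itraconazole and at 884, 925 and 959 with OSW-1. It was not called with 25HC (0.03) or itraconazole (0.04) and rose with OSW-1 (0.36 ± 0.08, adjusted p = 0.00034), where the groups did not overlap. Of the 3 genes for subunit c, Atp5g2 (-0.44, -0.39 and -0.77) and Atp5g3 (-0.33, -0.30 and -0.30) fell with each compound, Atp5g3 with no call under library totals, and Atp5g1 (0.10, -0.04 and 0.20) was not called, but all of the 50-base stretches of Atp5g2 (100%) occur in other genes too.

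**Figure D4:**
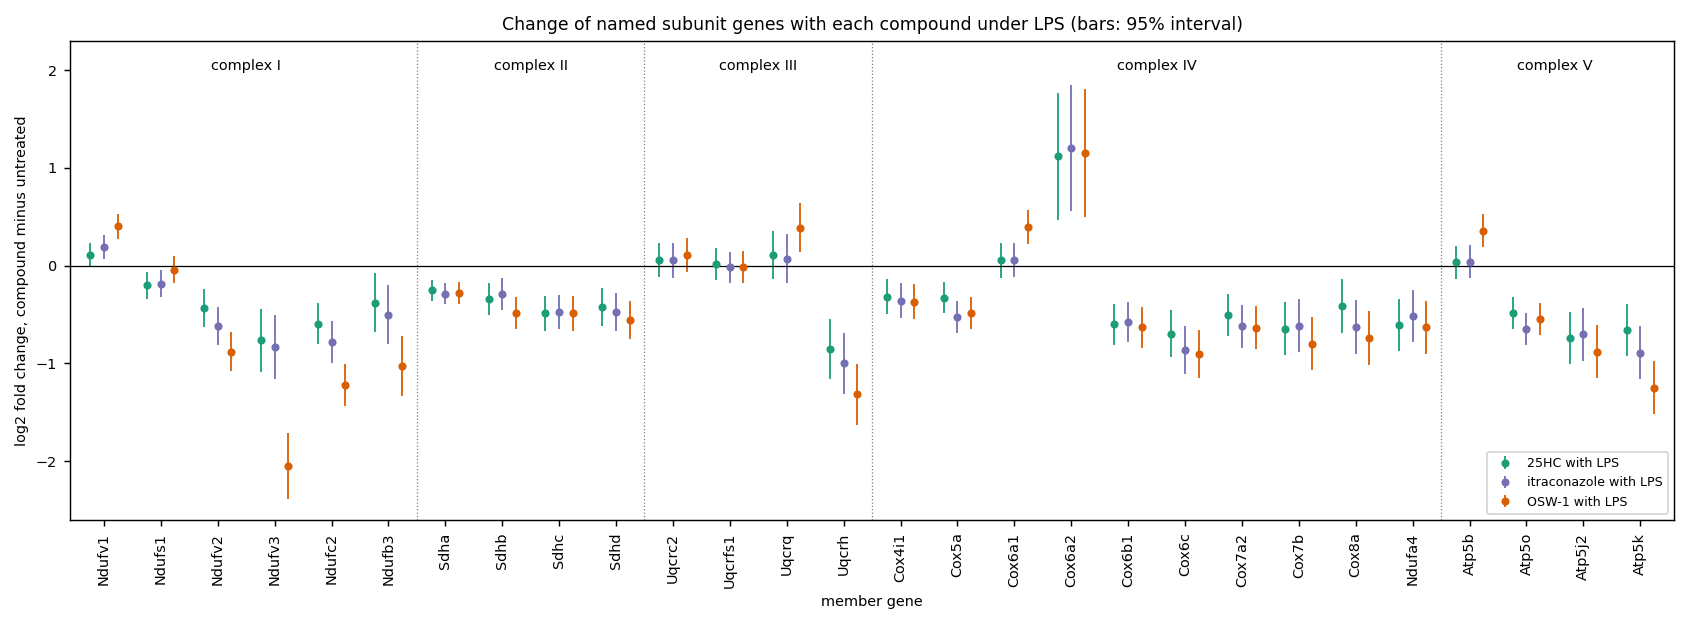
Log2 fold change, compound minus untreated, of 28 named subunit genes under LPS, with 95% intervals as bars and 1 colour per compound. With OSW-1 Ndufv3, Uqcrh, Atp5k and Ndufc2 lie lowest, with 25HC and itraconazole Uqcrh lies lowest, while Cox6a2 lies near 1.2 for each compound and Uqcrc2 and Uqcrfs1 near 0.

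The start regions of 3 members that ended at different levels are shown because nuclear subunit genes are known to share promoter motifs. They are the RefSeq windows (GRCm38.p6) from 250 bases before to 50 after the start of Uqcrh (chr4:116075021-116075320, minus strand) and Atp5k (chr5:108434350-108434649, minus strand), which fell with each compound under LPS, and of Atp5b (chr10:128083057-128083356, plus strand), which did not. Capitals mark matches to the motifs searched.
Uqcrh: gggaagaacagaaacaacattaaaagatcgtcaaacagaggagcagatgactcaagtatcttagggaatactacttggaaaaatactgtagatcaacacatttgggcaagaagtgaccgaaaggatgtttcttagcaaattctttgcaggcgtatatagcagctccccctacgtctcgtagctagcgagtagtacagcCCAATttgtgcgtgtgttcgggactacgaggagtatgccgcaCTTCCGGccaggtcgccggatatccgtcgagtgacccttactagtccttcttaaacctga
Atp5k: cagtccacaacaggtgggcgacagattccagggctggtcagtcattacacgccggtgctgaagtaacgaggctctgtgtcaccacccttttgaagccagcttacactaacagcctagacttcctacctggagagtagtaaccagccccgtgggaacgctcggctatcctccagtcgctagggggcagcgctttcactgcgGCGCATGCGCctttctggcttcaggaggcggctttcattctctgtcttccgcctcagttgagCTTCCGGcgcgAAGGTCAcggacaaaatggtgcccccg
Atp5b: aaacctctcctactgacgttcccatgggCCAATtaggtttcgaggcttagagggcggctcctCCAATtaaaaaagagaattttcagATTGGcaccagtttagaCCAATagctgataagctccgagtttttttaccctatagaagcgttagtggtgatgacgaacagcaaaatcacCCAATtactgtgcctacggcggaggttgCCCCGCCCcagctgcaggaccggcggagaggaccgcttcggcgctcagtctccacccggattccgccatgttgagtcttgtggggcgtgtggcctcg

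In the Uqcrh window the matches are a CCAAT box and a CCGGAAG site, in the Atp5k window an NRF1 motif, CCGGAAG and AAGGTCA, and in the Atp5b window several CCAAT boxes and GGGCGGGG. Over the 67 members with a window, 7.46% held the palindromic motif of NRF1, a regulator of respiratory genes, against 1.07% of 27025 genes with a window of the same length. CCGGAAG, the core of ETS factors such as GABPA, was in 23.9% against 9.93%, AAGATGGC (YY1) in 16.4% against 3.19% and AAGGTCA (the ERR family) in 11.9% against 5.38%. CCAAT was in 44.8% against 41.1% and GGGCGGGG, the GC box of Sp1, in 19.4% against 19.6%. No member held the NF-kB motif searched, which was in 0.174% of all genes. Both strands were searched for these exact letters, and the listed motifs do not share a core. A match is a description of sequence and not a measured site. The printed windows are examples and do not show that a motif goes with the fall. The window of Ndufv3, which fell with each compound under LPS, held no searched motif that the Atp5b window lacked. That of Cox5a, also lower with each compound, held none of the motifs searched. That of Sdhb, which fell too, held the ETS core among others.

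The response to LPS itself was then set against that of untreated cells, as the difference between both responses. For 25HC 0 members rose and 10 fell by this test (12.7%), against 5.34% and 6.95% of all genes (12.3% either way). For itraconazole 1 rose and 18 fell (22.8%), against 12.2% and 14.2% (26.3% either way), and with the mouse as a replicate block 1 rose and 29 fell. With 1 library left out the counts of calls ran from 0 (without 25HC and LPS mouse 1) to 16 (without its mouse 3) for 25HC, and from 9 (without itraconazole and LPS mouse 1) to 45 (without its mouse 3) for itraconazole. For OSW-1 6 rose and 31 fell (39.2%), against 23.4% and 28.3% (51.7% either way). Uqcrh was called in all 3 (-0.72, -0.83 and -1.22). Ndufa4 was called for 25HC (-0.65), Cox6c and Ndufa5 for itraconazole (-0.66 each), and Ndufv3 (-1.57), Ndufb3 (-0.89) and Ndufc2 (-0.84) for OSW-1. After a compound, LPS raised 9, 9 and 16 members and lowered 25, 28 and 31, against 30.6% and 33.3%, 33.4% and 33.6%, and 34.8% and 36.6% of all genes, where untreated cells had 26 and 6. With library totals those splits were 3 and 52, 2 and 55, and 8 and 39, while the median of all genes moved by -0.32, -0.29 and -0.15. Cox5a rose with LPS after every compound, though after itraconazole it was not called with library totals (0.15, adjusted p = 0.15).

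Loss of Ch25h gave no call among the subunit genes. Ch25h itself was low in untreated wild-type cells, at 1.96 CPM without LPS and 1.51 with it at the time sampled. In unstimulated cells 0 of 79 were called, against 0% higher and 0.00759% lower of all genes, and with LPS 0 of 79, against 0.0152% and 0.213%. The difference between the LPS responses of the genotypes gave 0 calls among the members and 0% of all genes. At an unadjusted p under 0.05 there were 6, 6 and 4 members (7.59%, 7.59% and 5.06%), against 13%, 17.1% and 11.2% of all genes, and DESeq2 and limma-voom called 0 as well. The smallest adjusted p in edgeR was 0.229 without LPS and 0.184 with it. The 95% interval of the difference stayed within 1.5-fold in either direction for 75 of 79 members without LPS and for 72 with LPS. Without untreated wild-type LPS mouse 3, 6 members were called with LPS.

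Genes of the same pathway outside the members were read from lists. Of the 13 subunits encoded by mitochondrial DNA, 11 fell with LPS in wild-type cells and 0 rose (median -0.72), against 30.1% lower and 30.8% higher among all genes. The falls were led by mt-Nd3 (-1.36 ± 0.26) and mt-Cytb (-1.08 ± 0.16), and the sum of the 13 went from 15064 ± 833 to 12396 ± 1172 CPM. With 25HC and LPS 1 of 13 fell further (mt-Co2, -0.30), against 21% of all genes lower. With itraconazole 1 rose (mt-Nd6, 0.95), against 26.5% higher. With OSW-1 4 of 13 fell, among them mt-Co3 (-0.53) and mt-Co1 (-0.49), against 37.1% lower, so these counts were below the shares of all genes. These transcripts were read in polyA-selected libraries, which bears on their levels. Of 47 assembly factors 24 rose and 9 fell with LPS, which is 51.1% and 19.1% against 30.8% and 30.1% of all genes. Under LPS 2 rose and 12 fell with 25HC (4.26% and 25.5%, against 20.8% and 21% of all genes), 6 and 18 with itraconazole (12.8% and 38.3%, against 26.5% and 27.9%) and 15 and 16 with OSW-1 (31.9% and 34%, against 34.3% and 37.1%). Bcs1l, which inserts the Rieske protein into complex III, fell with itraconazole (-0.98) and OSW-1 (-1.58), and Coa7, a complex IV factor, rose (1.21 and 2.05). Of 21 tricarboxylic acid cycle genes 3 rose and 6 fell with 25HC (14.3% and 28.6%), 5 and 5 with itraconazole (23.8% each), and 6 and 4 with OSW-1 (28.6% and 19%, both below the shares of all genes), where Mdh1 fell by 1.59 and Dlst rose by 1.23 on the log2 scale.

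Of 14 regulators of mitochondrial biogenesis, 5 rose and 1 fell with 25HC and LPS, 8 rose and 1 fell with itraconazole, and 11 rose and 2 fell with OSW-1. These are 35.7%, 57.1% and 78.6% higher, against 20.8%, 26.5% and 34.3% of all genes. LPS alone raised Ppargc1b (1.44), a coactivator, and Esrra (1.09), the estrogen-related receptor it works with, and lowered Myc (-2.46). With OSW-1 and LPS, against untreated cells with LPS, all 3 went the other way, with Ppargc1b at -2.68, Esrra at -0.49 and Myc at 3.61.

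With OSW-1 the share of subunit genes that fell was higher among shorter transcripts. With 25HC and itraconazole these shares showed no steady order, but the median fall was larger in shorter transcripts. With OSW-1 and LPS 32 of 41 members with transcripts under 800 bases fell (78%), 15 of 23 from 800 to 1499 bases (65.2%) and 7 of 15 at 1500 bases or more (46.7%), against 48.6%, 43.4% and 36.2% of all protein-coding genes tested in those classes. The shares lower in the same order were 61%, 65.2% and 40% with 25HC, against 35.3%, 24.9% and 20.2% of all coding genes. For itraconazole they were 70.7%, 65.2% and 66.7%, against 39.9%, 33.9% and 26.9%. Median changes of the members, in the same order, were -0.361, -0.330 and -0.173 with 25HC and -0.417, -0.344 and -0.185 with itraconazole. For OSW-1 they were -0.560, -0.545 and -0.062. Differences between classes were not tested. Spearman's rho between length and change across the 79 members was 0.28, 0.31 and 0.34 with 25HC, itraconazole and OSW-1, and 0.12, 0.12 and 0.094 across 12452 coding genes. The genes share libraries and are not replicates, so this is a description. In every length class the share of members that fell with OSW-1 was above that of all genes.

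The counts were also taken without genes that overlap or resemble others. Among 25 members an exon overlaps an exon of a gene on the opposite strand, and 6 share 50% or more of their 50-base stretches with other genes. The 48 tested members with neither an overlap nor such sharing had 29 lower and 0 higher with 25HC and LPS, 33 and 1 with itraconazole and 35 and 5 with OSW-1, with medians of -0.36, -0.47 and -0.57. Among all genes tested, without this selection, the shares lower and higher were 21% and 20.8%, 27.9% and 26.5%, and 37.1% and 34.3%.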

How the data were processed

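Gene counts in 30 libraries of polyA-selected RNA (Illumina TruSeq stranded) were used as deposited. Per the submitters' processing notes, the authors used FastQC 0.11.9, GSNAP 2018-07-04, featureCounts of Subread 1.5.2, edgeR 3.26.8 and the build GRCm38 (mm10). The strand setting and annotation release of the counting are not given in the sources used here, so members that overlap or resemble other genes are uncertain. Groups, and mice within a genotype, come from the labels. P-values measure the spread between mice, taken as independent across conditions.

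Counts were scaled by TMM and filtered with filterByExpr (minimum count 10), leaving 13173 genes. One edgeR 4.0.16 quasi-likelihood fit (R 4.3.3) of 10 groups of 3, with 20 residual degrees of freedom, gave 17 comparisons, with Benjamini-Hochberg adjustment over all tested genes and calls under 0.05. The script was tested on simulated data. CPM and 95% intervals come from this fit. Positions and lengths are from GENCODE vM21 (GRCm38), and promoter windows, for 67 of 80 members, from RefSeq (GRCm38.p6). Alternatives used DESeq2 1.42.0 and limma 3.58.1. Figures and tables used matplotlib 3.10.9, scipy 1.17.1, numpy 2.4.6 and pandas 2.3.3 under Python 3.11.15.

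The members and lists were chosen with earlier results of these data known. Named members were drawn, per comparison, from the 3 largest and 3 smallest called changes (average log2 CPM at least 2), the 2 smallest p, and fixed isoforms, core and complex II subunits. Outside lists gave the 2 largest and smallest called changes. Not every gene so drawn is described. Cox7a2l, at 172.6 CPM per kilobase and among the 2 smallest p of Ch25h-/- with LPS, is left out. So is Atp5sl, among the 3 largest called rises of OSW-1 with LPS, in that comparison. Same-mouse libraries deviated together, in most pairs weakly (median correlation 0.0865 over 84 wild-type pairs and 0.0906 over 3 Ch25h-/- pairs). The highest wild-type pair was at 0.399, and 36 of the 84 were over 0.1. Of 168 wild-type pairs of different mice 5 were, with a median of -0.0441. The pairing comes from the mouse label. Alternatives were DESeq2 size factors, library totals, no filter, DESeq2, the mouse as a replicate block or, in limma-voom, as a random effect (correlation 0.0968), the compared groups alone, even counts halved, leaving out each library and, chosen after seeing the data, leaving out wild-type mouse 3.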

Additional observations from a re-analysis of the deposited data

Results flagged for a closer look

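Each of these results differs between cells with and without a compound by a direct test of the difference of LPS responses (edgeR, adjusted p under 0.05). For 25HC it was called in 10 members (0 to 16 with 1 library left out), near the 12.3% of all genes called either way, and among those named Uqcrh had a difference of -0.72, Cox7b of -0.67 and Ndufa4 of -0.65. For itraconazole it was called in 19 members, below the 26.3% of all genes, with Cox6a2 at 1.73, Uqcrh at -0.83, Cox6c and Ndufa5 at -0.66 each and Ndufv2 at -0.56. For OSW-1 it was called in 37 members, below the 51.7% of all genes, with Cox6a1 at 0.53, Cox5b at 0.42, Ndufv1 at 0.40, Ndufv3 at -1.57, Uqcrh at -1.22, Ndufb3 at -0.89 and Ndufc2 at -0.84. The 3 differences share the untreated libraries.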

How the results depend on the processing

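Of 147 counts of members called under fixed alternatives 126 were within 1.5 times the value reported, and of 126 with 1 library left out 101 were. Of the values of named members under all alternatives, 6480 stayed called in the same direction or stayed uncalled, 287 lost the call, 139 gained one and 12 reversed. Reversed means a change of sign with a call in either setting. A change of sign between values called in neither is counted among the 6480. For counts that moved further the cause was not tested. With library totals the calls numbered 55 for LPS after 25HC, 57 for LPS after itraconazole, 1 for itraconazole and 10 for OSW-1 without LPS, and 4, 11 and 24 for the response differences of 25HC, itraconazole and OSW-1. Without the count filter 25HC without LPS had 3 and itraconazole 1. Itraconazole without LPS had 5 with DESeq2, 9 with limma-voom and 16 in the compared groups alone. The compared groups alone gave 31 for 25HC with LPS, 29 for itraconazole with LPS, and 6 and 9 for the response differences of 25HC and itraconazole. The replicate block gave 30 for the response difference of itraconazole, as did limma-voom, and moved no other count by over 1.5 times. Leaving out mouse 3 gave 37 for OSW-1 without LPS and 19 and 42 for the response differences of 25HC and itraconazole.

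With 1 library left out the counts ran from 1 to 6 for 25HC, 0 to 3 for itraconazole and 7 to 25 for OSW-1 without LPS (lowest without OSW-1 mouse 1), from 0 to 16 for the response difference of 25HC (lowest without 25HC and LPS mouse 1, highest without its mouse 3), from 9 to 45 for that of itraconazole (lowest and highest without itraconazole and LPS mice 1 and 3) and from 0 to 6 for Ch25h-/- with LPS (highest without untreated wild-type LPS mouse 3). All reversals came with library totals, where LPS gave Cox6a1 -0.29, Cox6b1 -0.11, Cox4i1 -0.27 and Ndufv1 -0.32 in wild-type and Sdhc -0.25 and Uqcrc2 -0.026 in Ch25h-/- cells, LPS after 25HC gave Uqcrc2 -0.023, Atp5b -0.26 and Ndufv1 -0.25, LPS after itraconazole gave Ndufv1 -0.13, and OSW-1 with LPS gave Ndufs1 0.22 and Uqcrfs1 0.25.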
